A study of Mus musculus with 18 samples.

Results

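The 8 genes described here are Icam1, Vcam1, Tnfaip2, Sod2, Csf1, Irf1, Cd40 and Map3k8, taken by gene name from a table of 16873 genes. They are textbook targets of tumour necrosis factor (TNF). TNF binds its receptor, the IkappaB kinase complex releases NF-kappaB dimers into the nucleus, and these switch on a set of genes that recruit leukocytes, protect the cell from death and pass the alarm on. In liver such genes respond in Kupffer cells (the resident macrophages), in the endothelium that lines the sinusoids and, for part of them, in hepatocytes. The members act at different steps. Icam1 and Vcam1 are surface proteins that leukocyte integrins grip, Csf1 is the growth factor that keeps macrophages alive, Cd40 is a TNF-family receptor for help from T cells, and Map3k8 (also called Tpl2) is the kinase that passes TNF and Toll-like receptor signals to ERK. Irf1 is a transcription factor of the interferon response, Sod2 is the superoxide dismutase of mitochondria, and Tnfaip2 is an exocyst-like protein that shapes membrane protrusions.

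Hepatocytes came from livers of tumour-free mice that either lacked Mtdh (KO) or were wild type (WT), matched for age. Each genotype was given TNFa, TGFb (transforming growth factor beta, a cytokine of growth arrest and fibrosis) or Kupffer cell conditioned medium (CM) made with Py8119-EVPs. Py8119 is a mouse mammary tumour line, and the labels do not say whether the cells or the medium received the EVPs. This gives 6 groups of 3 libraries, 18 in all. Every group received an agent and there was no untreated group, so a level with TNFa can be set against TGFb or CM only, and induction by TNF itself is not measured. The sources used here give no strain, sex, age, dose, time or method of Mtdh removal, and they do not say whether the 3 libraries of a group are 3 mice.

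The libraries held an estimated 19429355 to 35616989 reads on the genes of the table. Mtdh was at 581 to 973 in the 9 KO libraries and at 10063 to 13725 in the 9 WT libraries, so the labelled genotypes held in all 18. All 8 hepatocyte markers checked were present, with albumin between 1290000 and 2730000. Markers of other liver cells were present as well. All 15 Kupffer cell and macrophage markers and all 14 endothelial markers were detected, though not each in every library. Timd4 was listed at 0 in the 3 TGFb WT libraries, and Cd163, Fcgr1, Clec4g and Kdr also had a lowest value of 0. The 6 cholangiocyte markers summed to between 4950 and 10010, but this was mostly Sox9 (4466 to 9468). Spp1, Krt19, Epcam, Krt7 and Cftr did not exceed 489, 349, 233, 65.3 and 37.6 in any library. The B cell, T and NK cell, neutrophil and dendritic cell lists each summed to no more than 120.0 in any library. The 12 stellate cell and fibroblast markers were mixed. Acta2 and Hand2 did not exceed 7.55 and 5.10 in any library, whereas Reln, Ecm1 and Dcn reached 1371, 689 and 545.

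Promoter windows were available for 5 of the 8 genes (Icam1, Tnfaip2, Sod2, Csf1 and Irf1). The windows, which run 50 bases past the start, were searched on either strand for the kappaB consensus, the sequence NF-kappaB dimers bind. A match lay in the windows of Sod2, Csf1 and Irf1, against 4.51% of all 32851 windows of the same length, and none lay in those of Icam1 and Tnfaip2. The 250 bases before the start are shown for the 3 genes with a match, whose levels followed different patterns across the groups, and for Tnfaip2, which differed between genotypes with every treatment. Sequences are from RefSeq on GRCm38.p6, read along the strand of the gene, with the kappaB match in capitals.
Sod2 (chr17:13007589-13007838, plus strand): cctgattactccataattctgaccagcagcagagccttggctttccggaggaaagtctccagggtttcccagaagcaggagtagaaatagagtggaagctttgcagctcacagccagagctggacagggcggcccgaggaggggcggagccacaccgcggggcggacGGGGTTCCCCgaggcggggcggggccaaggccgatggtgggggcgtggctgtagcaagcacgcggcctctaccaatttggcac
Csf1 (chr3:107760470-107760719, minus strand): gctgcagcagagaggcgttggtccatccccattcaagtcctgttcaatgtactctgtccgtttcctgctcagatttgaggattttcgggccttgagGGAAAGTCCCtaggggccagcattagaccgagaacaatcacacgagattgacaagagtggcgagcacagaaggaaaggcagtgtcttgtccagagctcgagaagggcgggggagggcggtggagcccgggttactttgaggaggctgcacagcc
Irf1 (chr11:53769764-53770013, plus strand): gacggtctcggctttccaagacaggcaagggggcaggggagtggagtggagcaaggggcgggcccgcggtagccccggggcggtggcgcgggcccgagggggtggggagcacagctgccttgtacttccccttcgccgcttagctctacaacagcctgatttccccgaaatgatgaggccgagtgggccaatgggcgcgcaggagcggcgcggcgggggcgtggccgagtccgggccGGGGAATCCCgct
Tnfaip2 (chr12:111442411-111442660, plus strand): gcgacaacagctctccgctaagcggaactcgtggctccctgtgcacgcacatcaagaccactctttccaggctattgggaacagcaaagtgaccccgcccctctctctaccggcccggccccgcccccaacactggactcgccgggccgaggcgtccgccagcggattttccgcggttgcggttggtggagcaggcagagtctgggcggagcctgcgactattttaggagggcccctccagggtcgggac

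Counted back from the start, the match lay at -83 to -74 in Sod2, at -154 to -145 in Csf1 and at -13 to -4 in Irf1, for which the first of 2 windows is shown. The GAS element, bound by STAT factors (TTCNNNGAA, in 8.30% of all windows), was found in Icam1, where it read TTCCCGGAA, and in Sod2 and Irf1. The AP-1 element (TGANTCA, in 7.81% of windows) was in none of the 5 genes, and the TATA box (TATAAA, in 13.6% of windows) in Icam1 alone of them, at 14 to 19 past the start. The GAS and kappaB matches did not overlap. These are matches of letters within short windows, and a missing match says only that these letters are not in this window.

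On the mm39 build of the table, Icam1 lay on chromosome 9 (20927281 to 20940113), Vcam1 and Csf1 on chromosome 3 (115903598 to 115923337 and 107648364 to 107667785), and Tnfaip2 on chromosome 12 (111408903 to 111421452). Sod2 lay on chromosome 17 (13225733 to 13258950), Irf1 on chromosome 11 (53660841 to 53669200), Cd40 on chromosome 2 (164897547 to 164914868) and Map3k8 on chromosome 18 (4331327 to 4353015). None of the 8 overlapped another gene of the table. All 8 passed the filter on low values and were tested among 14455 genes.

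Values below are the normalized read counts the authors deposited. Levels of different genes were compared only per kilobase of the longest coding transcript. On that scale, averaged over 18 libraries, Sod2 (888 per kilobase) and Icam1 (781) stood highest, followed by Csf1 (278), Irf1 (226), Tnfaip2 (187), Vcam1 (165), Map3k8 (66.5) and Cd40 (11.6). The mitochondrial enzyme and the integrin ligand Icam1 were thus the most abundant messages of the set, and the receptor Cd40 the least. Cd40 rested on an estimated 15.8 to 53.0 reads per library, Map3k8 on 34.0 to 328 and the other 6 genes on at least 196, so counting error is largest for Cd40.

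**Figure D1:**
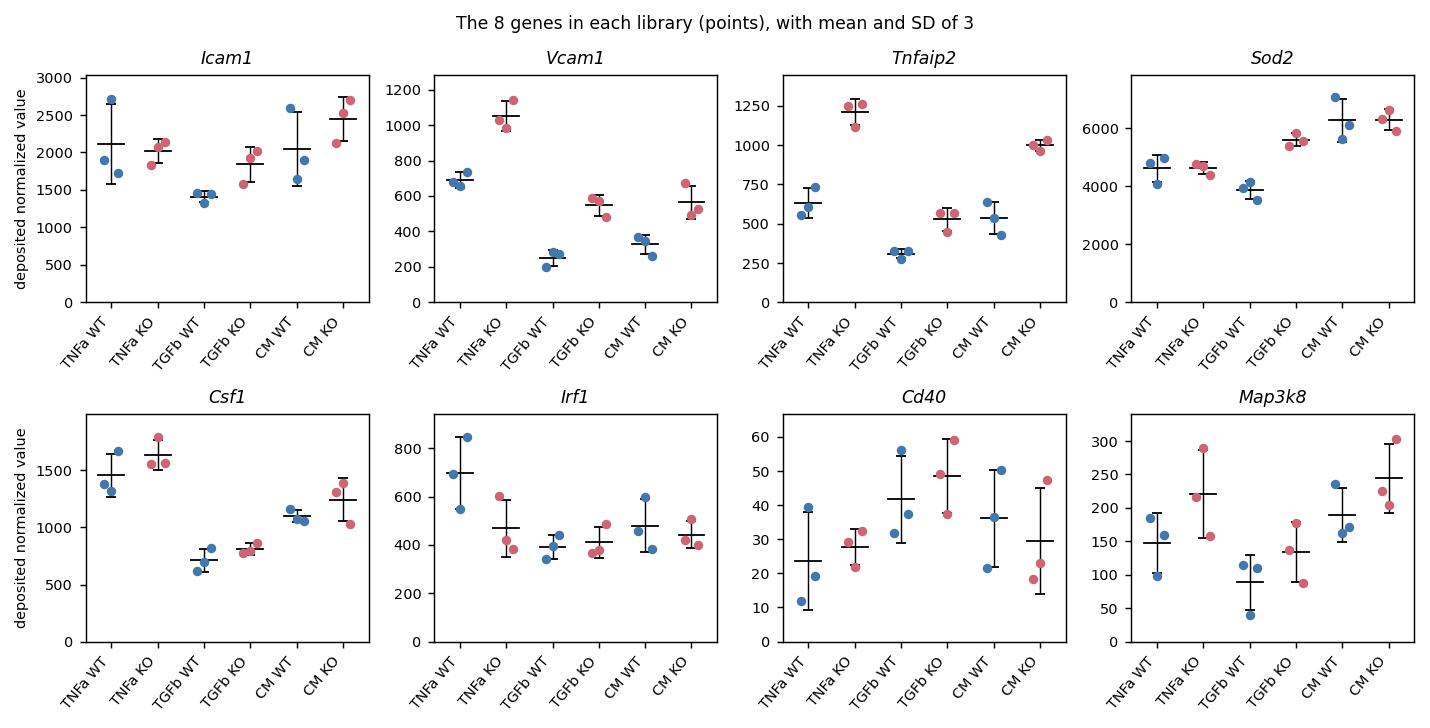
Deposited normalized value (vertical axes, linear from 0) of each of the 8 genes in the 18 libraries, by group on the horizontal axes, with points for libraries (blue WT, red KO), a bar for the mean and whiskers for the SD of 3 libraries. Tnfaip2 and Vcam1 show red points above blue points with every treatment, and Csf1 falls from TNFa to CM to TGFb in either genotype.

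Knockout and wild-type libraries were compared within each treatment to ask how loss of Mtdh bears on these genes. Tnfaip2 and Vcam1 were higher in KO with each of the 3 treatments, by 1.52 to 2.19-fold. Sod2 was higher in KO with TGFb alone among the 3 treatments, and the other 5 genes did not pass in any of them. With TNFa 2 of 8 members passed as higher (4.19% of all tested genes did) and 0 as lower (3.70%). With TGFb 3 of 8 were higher (7.25%) and 0 lower (4.95%), and with CM 2 of 8 were higher (5.62%) and 0 lower (3.77%). Averaged over treatments 3 of 8 were higher (11.2%) and 0 lower (9.53%). The averaged count of higher members was 5 of 8 without TGFb WT 3 and 2 of 8 with all libraries brought to equal totals. Every KO library lay above every WT library for 2 of 8 with TNFa (13.3% of all genes), 4 of 8 with TGFb (13.9%) and 2 of 8 with CM (13.3%). The median log2 difference of the 8 was 0.27, 0.46 and 0.23 with TNFa, TGFb and CM, beside 0.02, -0.01 and -0.01 for all tested genes. Calls are limma adjusted p-values below 0.05, log2 differences are on the scale of log2(value + 1), and each is given with its standard error. These are bulk libraries, in which more cells of a type and more RNA per cell cannot be told apart.

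Vcam1, the ligand of the leukocyte integrin VLA-4, had values of 1028, 983 and 1143 in TNFa KO and 679, 654 and 737 in TNFa WT. With TGFb it was 591, 571 and 479 in KO and 200.2, 281 and 273 in WT, and with CM 671, 491 and 528 in KO and 369, 348 and 263 in WT. Every KO library was above every WT library of its treatment, and the lowest level of all was in TGFb WT. The log2 difference was 0.61 ± 0.17 with TNFa (limma adjusted p = 0.025), 1.13 ± 0.17 with TGFb (adjusted p = 1.6e-05) and 0.79 ± 0.17 with CM (adjusted p = 0.0024). The average was 0.84 ± 0.10, a 1.79-fold rise (adjusted p = 1.1e-07). The call with TNFa did not pass without TNFa WT 1 (adjusted p = 0.071), TNFa WT 2 (0.084), TNFa KO 1 (0.063) or TNFa KO 3 (0.10), with log2 differences of 0.54 to 0.65 over all 6 omissions. Calls with TGFb and CM passed under each omission.

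Icam1, the ligand of the integrins LFA-1 and Mac-1, did not pass in any genotype comparison. With TGFb it was 1581, 1921 and 2024 in KO and 1460, 1324 and 1441 in WT, groups that did not overlap, and the log2 difference of 0.38 ± 0.15 had a limma adjusted p of 0.098. With TNFa it was 1834, 2073 and 2135 in KO and 1893, 2717 and 1727 in WT, and with CM 2129, 2527 and 2699 in KO and 2597, 1645 and 1900 in WT. In both of these 1 WT library (TNFa WT 2 and CM WT 1) stood above the other WT libraries of its group. The averaged difference was 0.21 ± 0.09 (adjusted p = 0.090, and 0.013 without TNFa WT 2 or 0.015 without CM WT 1). The 2 adhesion genes were thus called differently, but this does not show that they differ, which was not tested.

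Tnfaip2 was 1251, 1118 and 1263 in TNFa KO and 555, 605 and 737 in TNFa WT. With TGFb it was 571, 445 and 571 in KO and 325, 275 and 326 in WT, and with CM 1004, 960 and 1032 in KO and 637, 538 and 431 in WT. The genotypes did not overlap with any treatment, and the TGFb KO and CM WT libraries overlapped. The log2 difference was 0.94 ± 0.16 with TNFa (limma adjusted p = 1.1e-04), 0.77 ± 0.16 with TGFb (7.4e-04) and 0.92 ± 0.16 with CM (1.4e-04), and 0.88 ± 0.09 on average, a 1.84-fold rise (7.4e-09). Each of these calls passed under every omission of a library.

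Sod2, which turns superoxide into hydrogen peroxide inside mitochondria, was 5385, 5832 and 5560 in TGFb KO and 3920, 4147 and 3523 in TGFb WT. With TNFa it was 4777, 4699 and 4375 in KO and 4799, 4083 and 4959 in WT, and with CM 6319, 6625 and 5917 in KO and 7086, 5610 and 6095 in WT. The genotypes stood apart with TGFb and overlapped with TNFa and with CM. The log2 difference was 0.54 ± 0.09 with TGFb (limma adjusted p = 1.2e-04), 0.01 ± 0.09 with TNFa (0.99) and 0.01 ± 0.09 with CM (0.97). With TNFa and CM its 95% intervals ran from -0.19 to 0.20 and from -0.18 to 0.20. The average of 0.18 ± 0.05 passed (0.014), but not when all libraries were brought to 1 common total (0.13, adjusted p = 0.053). Of the 8 hepatocyte markers 4 were higher and 0 lower in KO with TGFb, with a summed value of 2851630 to 3070560 against 2023810 to 2136680 in WT, and 2 were higher and 2 lower with TNFa, where the sums were 1431550 to 1520620 and 1489830 to 1567650. These sums are mostly albumin (Alb mean 2643330 in TGFb KO), and Apoa1, which was not called with TGFb, had means of 18351 in TGFb KO and 21991 in TGFb WT. With CM, where Sod2 did not pass, 4 were higher and 0 lower. The part of these levels in the Sod2 result was not tested.

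The difference of the knockout effect between treatments was tested for all 8 genes. For Sod2 the effect was smaller with TNFa than with TGFb by 0.53 ± 0.13 on the log2 scale (limma adjusted p = 0.044), which made 1 of 8 members called beside 1.10% of all genes in either direction. For CM against TGFb 0 of 8 were called by limma (0.491%, and 1 at an unadjusted p below 0.05), and for CM against TNFa 0 of 8 (0.630%, and 0 unadjusted). The Sod2 difference between TNFa and TGFb was no longer called in 11 of 12 omissions of a library (adjusted p up to 0.14, with values of -0.62 to -0.47), the exception being TNFa WT 2, nor with equal totals (-0.39, adjusted p = 0.11), without the filter on low values (adjusted p = 0.063) or with the replicate number as a block (adjusted p = 0.060). The corresponding difference between CM and TGFb was -0.53 ± 0.13 with adjusted p = 0.069, and it passed without CM WT 2 (0.043) and without CM WT 3 (0.044). For Vcam1 the knockout effect with TNFa minus that with TGFb was -0.52 ± 0.24 (adjusted p = 0.35), and for Tnfaip2 0.17 ± 0.22 (adjusted p = 0.81), with 95% intervals of -1.02 to -0.03 and -0.28 to 0.62. Comparisons between treatments share libraries.

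Irf1 was the member with the lowest knockout minus wild-type value. With TNFa it was 603, 421 and 382 in KO and 695, 550 and 848 in WT, with 1 KO library inside the WT range. The log2 difference was -0.58 ± 0.20 (limma adjusted p = 0.075, and 0.038 without TNFa WT 2 or 0.028 without TNFa KO 1). With TGFb and CM it was 0.06 ± 0.20 (0.90) and -0.10 ± 0.20 (0.84), and the TNFa difference from TGFb (-0.64 ± 0.28) did not pass (adjusted p = 0.32).

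Csf1 was not called between genotypes. It was 1552, 1788 and 1565 in TNFa KO and 1378, 1319 and 1672 in TNFa WT, and the log2 difference was 0.17 ± 0.13 with TNFa (limma adjusted p = 0.50), 0.19 ± 0.13 with TGFb (0.40) and 0.17 ± 0.13 with CM (0.49). The averaged difference of 0.18 ± 0.07 (adjusted p = 0.091) passed without TNFa WT 3 (0.047), TGFb WT 3 (0.045) or CM KO 3 (0.032). Map3k8 ran from 40.5 (TGFb WT 2) to 302 (CM KO 3). Its differences were 0.58 ± 0.36, 0.67 ± 0.36 and 0.36 ± 0.36 with TNFa, TGFb and CM (0.39, 0.27 and 0.64), and the average of 0.54 ± 0.21 had an adjusted p of 0.069 (0.044 without TNFa KO 3 or TGFb WT 3, 0.039 without TGFb WT 1 and 0.033 without TGFb KO 3). Cd40 ran from 11.9 (TNFa WT 1) to 59.0 (TGFb KO 3) and its averaged difference was 0.09 ± 0.34, with a 95% interval of -0.60 to 0.79, and no change was detectable at this depth and spread.

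**Figure D2:**
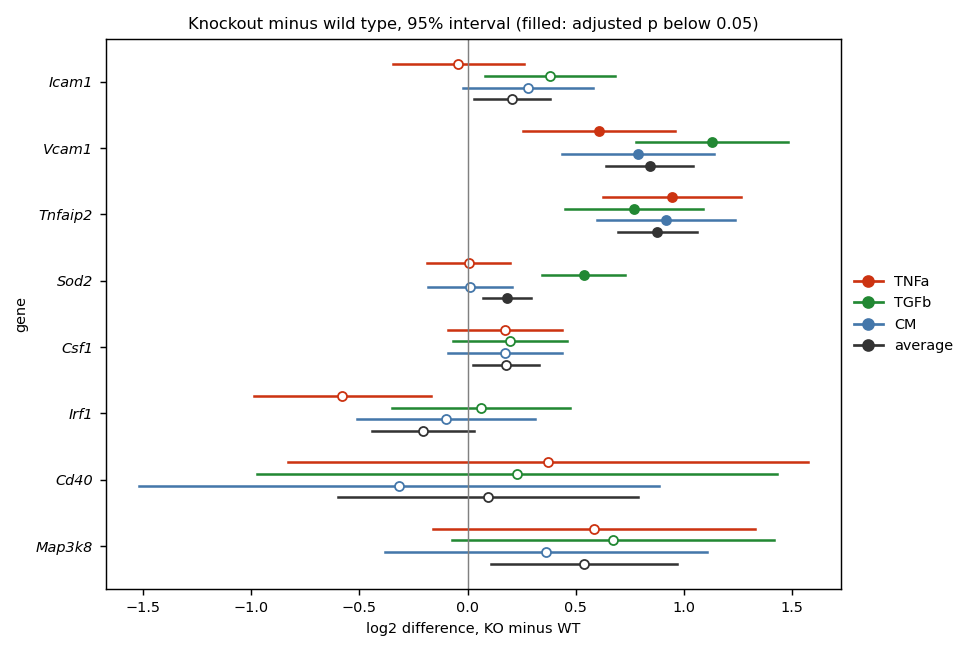
Log2 difference of KO minus WT (horizontal axis) for each gene (vertical axis) with TNFa, TGFb, CM and averaged over them, where points are limma estimates, lines are 95% intervals and filled points passed at adjusted p below 0.05. Vcam1 and Tnfaip2 lie right of 0 with every treatment (0.61 to 1.13 and 0.77 to 0.94), Sod2 with TGFb (0.54), and the Cd40 intervals are the widest.

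Most Kupffer cell and macrophage markers were also higher in KO. The endothelial markers were higher in KO in sum, but few were called with TGFb and CM. Those of other liver cells were mixed. Of 15 Kupffer cell and macrophage markers, 8 were higher in TNFa KO than in TNFa WT, 10 in TGFb KO and 9 in CM KO, while 0 were lower with any treatment. Their summed value was 9386 to 10529 in TNFa KO and 4749 to 5431 in TNFa WT, 7591 to 9145 in TGFb KO and 3742 to 4333 in TGFb WT, and 7527 to 7635 in CM KO and 3557 to 4128 in CM WT. Of 14 endothelial markers 6, 2 and 1 were higher with TNFa, TGFb and CM (4.19%, 7.25% and 5.62% of all genes were), and 0 lower. The only one called with CM was Cdh5, the adhesion molecule of endothelial junctions (means of 1946 in CM KO and 1288 in CM WT), while Kdr stood at 28.2 and 28.6. With TGFb Cdh5 and Stab1 were called, while Flt4 averaged 123 in TGFb KO and 149 in TGFb WT. Cdh5 and Stab1 make up most of the endothelial sum (means of 2486 and 1544 in TGFb KO). The endothelial sum was 6256 to 6589 in KO and 3495 to 3873 in WT with TNFa, 5182 to 6351 and 3855 to 4265 with TGFb, and 4692 to 5020 and 3205 to 3903 with CM. KO and WT libraries thus separated in both sums with each treatment, as they did for Vcam1 and Tnfaip2, which macrophages and endothelium can also express, and the part of these cells in the 2 rises was not tested. Cd68, a lysosomal protein of macrophages, averaged 1759 in TNFa KO and 2044 in TNFa WT, while Cd5l, a secreted Kupffer cell protein, averaged 757 and 155. Of 6 cholangiocyte markers 0 were higher and 2 lower in KO with TNFa, Spp1 (-1.81 ± 0.27, limma adjusted p = 2.8e-05) and Sox9 (-0.53 ± 0.13, 0.0095), and none was called with TGFb or CM. Of the 7 stellate cell and fibroblast markers tested, Dcn was higher with TGFb (1.03 ± 0.25, 0.0046) and CM (0.92 ± 0.25, 0.015), and 0 were lower with any treatment.

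**Figure D3:**
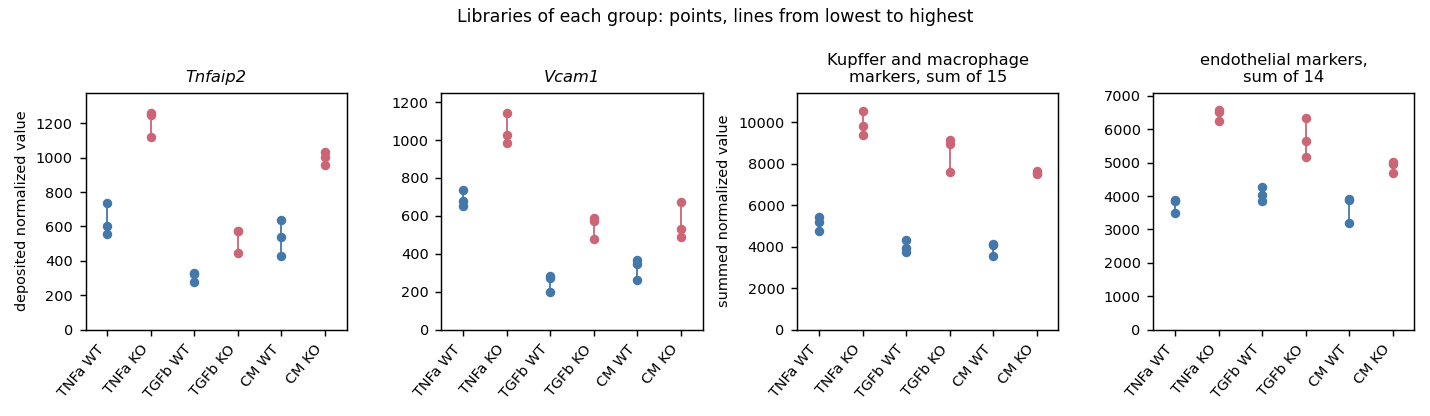
Normalized values of Tnfaip2 and Vcam1 beside the summed values of 15 Kupffer cell and macrophage markers and 14 endothelial markers (vertical axes, linear from 0), by group, with points for the 3 libraries (blue WT, red KO) joined from lowest to highest. In all 4 panels the KO libraries of a treatment lie above its WT libraries.

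TNFa and TGFb were compared within each genotype, since TNF is the named activator of these genes. In WT, 5 of 8 members were higher with TNFa (5.33% of all tested genes were) and 0 lower (8.06%). These were Vcam1 (2.76-fold), Csf1 (2.04-fold), Tnfaip2 (2.04-fold), Irf1 (1.76-fold) and Icam1 (1.47-fold). In KO 3 of 8 were higher (10.1%), namely Tnfaip2 (2.30-fold), Csf1 (2.01-fold) and Vcam1 (1.92-fold), and Sod2 was lower (1 of 8, beside 12.3%). The members' median log2 difference was 0.82 in WT and 0.46 in KO, beside 0.00 and 0.04 for all genes. Cd40 was the only member with a lower mean for TNFa than for TGFb in both genotypes, and it did not pass in either (-0.92 ± 0.59 and -0.78 ± 0.59, limma adjusted p = 0.37 and 0.39). With equal totals the median of all genes itself stood at 0.11 in WT and 0.29 in KO, and in KO Icam1 (0.39, adjusted p = 0.048) and Map3k8 (0.99, adjusted p = 0.034) then passed too.

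Csf1 followed the treatments most evenly. In WT it was 1378, 1319 and 1672 with TNFa, 1158, 1074 and 1058 with CM and 622, 698 and 819 with TGFb, and in KO 1552, 1788 and 1565, then 1312, 1385 and 1034, then 775, 791 and 868. The order TNFa, CM, TGFb held in each genotype with no overlap between treatments. The log2 difference of TNFa minus TGFb was 1.03 ± 0.13 in WT and 1.01 ± 0.13 in KO (limma adjusted p = 6.8e-07 and 3.9e-07), and that of CM minus TGFb was 0.63 ± 0.13 and 0.61 ± 0.13 (0.0010 and 0.0017). CM minus TNFa was -0.40 ± 0.13 in each (0.038 and 0.036). In WT that last call was lost without any library but TNFa WT 2 (adjusted p 0.052 to 0.22, and -0.30 without TNFa WT 3), and in KO without any but CM KO 2 (0.052 to 0.25, and -0.27 without CM KO 3).

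Vcam1 was highest with TNFa. TNFa minus TGFb was 1.47 ± 0.17 in WT and 0.94 ± 0.17 in KO (limma adjusted p = 2.2e-07 and 9.1e-05). CM minus TGFb was 0.38 ± 0.17 (0.17) and 0.04 ± 0.17 (0.94) and did not pass, and CM was below TNFa by 1.09 ± 0.17 in WT and 0.91 ± 0.17 in KO on the log2 scale (3.6e-05 and 2.9e-04). From the highest group mean down, TNFa KO (1051 ± 82.4, SD, n = 3) stood clear of TNFa WT (690 ± 42.9), which overlapped with CM KO (564 ± 95.1), which overlapped with TGFb KO (547 ± 60.0). CM WT (327 ± 55.9) and TGFb WT (251 ± 44.6) came last and overlapped.

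Tnfaip2, by contrast, was high with CM as well. TNFa minus TGFb was 1.03 ± 0.16 in WT and 1.20 ± 0.16 in KO (limma adjusted p = 1.3e-05 and 4.7e-07), and CM minus TGFb 0.78 ± 0.16 and 0.92 ± 0.16 (7.6e-04 and 1.1e-04). CM and TNFa differed by -0.25 ± 0.16 and -0.28 ± 0.16 and did not pass (0.35 and 0.30). TNFa KO (1210 ± 80.5, SD, n = 3) and CM KO (999 ± 36.2) stood above all WT libraries.

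Icam1 and Irf1 were called higher with TNFa than with TGFb in WT (0.56 ± 0.15 and 0.81 ± 0.20, limma adjusted p = 0.0085 and 0.0045) and did not pass in KO (0.13 ± 0.15 and 0.17 ± 0.20, with 0.58 and 0.60). The difference between genotypes is the same quantity as the difference of the knockout effect between treatments and did not pass for either gene (0.39 and 0.32). The Icam1 value fell to 0.36 without TNFa WT 2 (adjusted p = 0.12), and the Irf1 value to 0.66 without TNFa WT 3 (0.052). CM was above TGFb for Icam1 in WT by 0.51 ± 0.15 (0.019), but not without TGFb WT 2 (0.47, adjusted p = 0.080) or CM WT 1 (0.33, adjusted p = 0.19). In KO that difference was 0.41 ± 0.15 (0.073), and it passed with quantile normalization (0.042), equal totals (0.024) or the 2 groups alone (0.046). For Irf1 in WT, CM minus TNFa was -0.54 ± 0.20 (0.078, and 0.036 without TNFa WT 2 or 0.031 without CM WT 2). Irf1 had its highest mean in TNFa WT (697 ± 149, SD, n = 3), whose libraries overlapped those of CM WT. Its other 5 group means lay between 392 and 481, and these groups overlapped their neighbours.

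Sod2 was highest with CM. CM minus TNFa was 0.44 ± 0.09 in both WT and KO (limma adjusted p = 0.0015 and 0.0011), and CM minus TGFb was 0.69 ± 0.09 in WT (4.0e-06) and 0.17 ± 0.09 in KO (0.29). TNFa minus TGFb was 0.25 ± 0.09 in WT (0.074) and -0.28 ± 0.09 in KO (0.032). With equal totals the former passed (0.37, adjusted p = 0.0028), as did CM minus TGFb in KO (0.27, adjusted p = 0.040), and the latter did not (-0.02, adjusted p = 0.88). Quantile normalization likewise passed the former (0.016), as did omission of TNFa WT 2 (0.023), and lost the latter (0.086). The latter was also lost without TNFa KO 2 (0.055), TNFa KO 3 (0.12), TGFb KO 2 (0.095) or TGFb KO 3 (0.068). The group means ran from 6287 ± 355 in CM KO to 3863 ± 316 in TGFb WT (SD, n = 3), a 1.63-fold range that was the narrowest of the 8 genes. CM KO and CM WT overlapped, as did CM WT and TGFb KO, and TGFb KO stood above the TNFa groups.

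Map3k8 was higher with CM than with TGFb in WT, at 236, 162 and 171 against 115, 40.5 and 110. The log2 difference was 1.21 ± 0.36 (limma adjusted p = 0.026), but 0.73 without TGFb WT 2 (0.22) and 1.04 without CM WT 1 (0.12). Fitted on the 2 compared groups alone, this call (0.099) did not pass, nor did those in WT of Icam1 for TNFa and CM over TGFb (0.050 and 0.062), of Sod2 for CM over TNFa (0.055) and of Csf1 for CM under TNFa (0.083, and 0.057 in KO). Map3k8 in KO was 226, 204 and 302 with CM against 137, 177 and 87.4 with TGFb, and the difference of 0.90 ± 0.36 did not pass (0.12). In all, CM was higher than TGFb for 5 of 8 members in WT (5.76% of all genes) and 2 of 8 in KO (5.20%), and lower for 0 of 8 (6.09% and 5.39%). Against TNFa, CM was higher for Sod2 alone in each genotype (1 of 8, beside 6.81% in WT and 8.38% in KO) and lower for Vcam1 and Csf1 (2 of 8, beside 5.46% and 4.32%). These shares rest on 8 genes and on TGFb and TNFa libraries that the comparisons share.

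**Figure D4:**
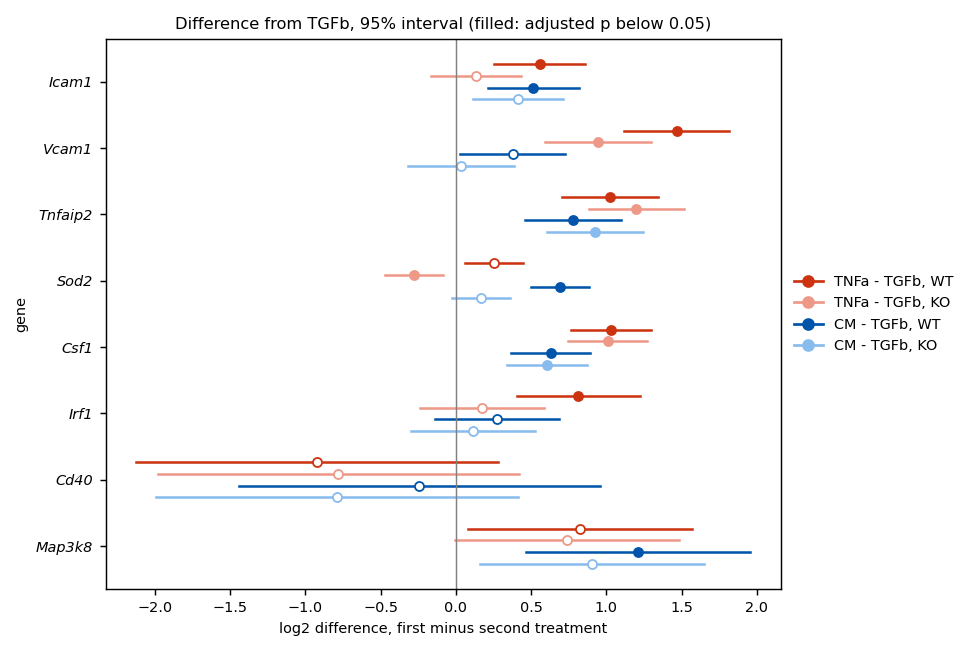
Log2 difference from TGFb (horizontal axis) of TNFa (red) and CM (blue) for each gene (vertical axis), dark for WT and pale for KO, where points are limma estimates, lines are 95% intervals and filled points passed at adjusted p below 0.05. Tnfaip2 and Csf1 lie right of 0 in all 4 comparisons (0.78 to 1.20 and 0.61 to 1.03), whereas Vcam1 passed with TNFa (1.47 and 0.94) and not with CM, and Cd40 lies left of 0 without passing.

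Macrophage, endothelial and hepatocyte markers were also compared between treatments. Of all tested genes, 5.33% were higher and 8.06% lower with TNFa than with TGFb in WT, and 10.1% and 12.3% in KO. For CM against TNFa the shares were 6.81% and 5.46% in WT, and 8.38% and 4.32% in KO. For CM against TGFb they were 5.76% and 6.09% in WT, and 5.20% and 5.39% in KO. The marker counts are to be read against these shares, which the smallest counts lie near. Of the 15 macrophage markers 4 were higher and 1 lower with TNFa than with TGFb in WT, and 3 higher and 0 lower in KO, with sums of 4749 to 5431 against 3742 to 4333 in WT. Of the 8 hepatocyte markers 5 were lower with TNFa in WT and 8 in KO. Of the 14 endothelial markers 2 were higher and 1 lower in WT, and 3 higher and 0 lower in KO. Lyve1 was higher by 1.72 ± 0.30 and 1.93 ± 0.30 (limma adjusted p = 1.0e-04 and 1.1e-05), and Eng was lower in WT (-0.96 ± 0.30, 0.032). The median log2 difference of the endothelial list was -0.29 in WT and 0.26 in KO. Its sum was 3495 to 3873 with TNFa and 3855 to 4265 with TGFb in WT, and 6256 to 6589 and 5182 to 6351 in KO. With CM against TNFa, 5 hepatocyte markers were higher in WT and 8 in KO, 3 macrophage markers were lower in WT (Lyz2, Cd68 and Adgre1) and 1 in KO (Lyz2), and 0 and 2 endothelial markers were lower. With CM against TGFb, 1 hepatocyte marker was higher and 4 lower in WT and 0 and 2 in KO, 2 macrophage markers were higher and 1 lower in WT and 1 and 0 in KO, and 2 endothelial markers were higher and 1 lower in WT and 2 and 2 in KO. Their part in the treatment differences of the 8 genes was not tested.

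Other genes of the pathway were taken from 3 lists without the 8 members. Of 50 other TNF and NF-kappaB targets 48 were tested. In WT 14 were higher and 5 lower with TNFa than with TGFb (5.33% and 8.06% of all genes were), and 29 did not pass. Ccl2, the monocyte chemokine (3.36 ± 0.17), and Cxcl1, a neutrophil chemokine (1.97 ± 0.17), were higher and Lif, a cytokine of the IL-6 family (-2.58 ± 0.16), was lower (limma adjusted p = 2.6e-14, 5.5e-10 and 1.2e-12). In KO 11 were higher and 6 lower (10.1% and 12.3% of all genes were), with Ccl2 at 2.83 ± 0.17 (3.4e-13). In both genotypes the count of lower targets lay near the share of all genes. The list's median was 0.26 in WT and 0.20 in KO, beside 0.00 and 0.04 over all genes.

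Between genotypes, 2 of the 48 targets were higher and 2 lower in KO with TNFa, a share near that of all genes (4.19% and 3.70%). With TGFb 13 were higher and 3 lower (7.25% and 4.95% of all genes), and with CM 5 and 2 (5.62% and 3.77%). With TGFb these included Tnfrsf1b, the type 2 TNF receptor (0.62 ± 0.09, limma adjusted p = 1.6e-05), and Cxcl1 (0.95 ± 0.17, 1.2e-04). With CM they included Junb, an AP-1 subunit (0.63 ± 0.10, 3.4e-05), and Nfkbia, the inhibitor IkappaBalpha (0.55 ± 0.13, 0.0047). Lcn2, a secreted siderophore-binding protein, was lower in KO with all 3 treatments, by 0.68 ± 0.10, 0.55 ± 0.10 and 0.42 ± 0.10 on the log2 scale (2.2e-05, 1.8e-04 and 0.0052). The knockout effect on Tnfaip3, the feedback inhibitor A20, was smaller with TNFa than with TGFb (-0.55 ± 0.14, 0.045). This was 1 of the 48 targets called in that test, beside 1.10% of all genes. The list's medians were 0.22, 0.32 and 0.20 with TNFa, TGFb and CM.

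Among 34 receptors, ligands and partners of the 8 proteins, 32 were tested, and 4 were higher and 2 lower in KO with TNFa, 8 and 1 with TGFb, and 5 and 2 with CM, to be read against the same shares of all genes. Csf1r, the receptor of Csf1 on macrophages, was higher in KO with every treatment (1.36 ± 0.23, 1.59 ± 0.23 and 1.21 ± 0.23, limma adjusted p = 2.2e-04, 9.8e-06 and 7.4e-04), while Csf1 itself was not called. Itgb2, the beta chain of the Icam1-binding integrins, was higher with TNFa (1.38 ± 0.35, 0.011) and TGFb (1.36 ± 0.35, 0.0086). Both are genes of leukocytes, Csf1r is itself in the macrophage marker list, and the part of such cells was not tested. Beside Sod2, the hydrogen peroxide enzymes Cat and Gpx1 were higher with TGFb (0.74 ± 0.09 and 0.81 ± 0.11, 2.1e-07 and 5.3e-06), and Ezr, a cytoskeletal linker of Icam1, was lower (-0.95 ± 0.09, 1.0e-08). Unlike Sod2, Cat was also called higher with TNFa (0.52 ± 0.09, 1.3e-04) and Gpx1 with CM (0.75 ± 0.11, 2.8e-05). Gpx1 had a smaller knockout effect with TNFa than with TGFb (-0.69 ± 0.16, 0.029). Ezr, which fell in KO, was also lowered less with TNFa than with TGFb (0.59 ± 0.13, 0.024). The Sod2 call in that test was lost under most omissions of a library. Omissions were read for the 8 members alone, so the calls of Gpx1, Ezr and Tnfaip3 in that test were not put through them. Of 23 genes of TNF receptor signalling all were tested, and 0 were higher and 1 lower in KO with TNFa (Sharpin, a subunit of the linear ubiquitin ligase, -0.80 ± 0.25, 0.045), while 1 was higher and 0 lower with TGFb and with CM (Tnfrsf1b in each), counts near the shares of all genes.

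For each member the genes of closest pattern were ranked by Pearson's r of log2 values over the 18 libraries, among 10789 other named genes with a mean of at least 50. Libraries of a group share treatment and genotype, so r can follow the 6 groups, to a degree that differed between members. Tnfaip2 was followed by Msr1, a macrophage scavenger receptor (r = 0.94), Ednrb, an endothelin receptor (0.94), and Esm1, a secreted proteoglycan of endothelium (0.94). Msr1 had group means of 467 in TNFa KO and 444 in CM KO against 195 and 213 in the WT groups of the same treatments. After the group means were removed, r was 0.57 for Msr1, -0.21 for Ednrb and 0.08 for Esm1. Vcam1 was followed by Itpripl2, Dusp14 and Mcm3 (0.93, 0.92 and 0.92, and 0.14, -0.17 and 0.58 within groups). Csf1 was followed by Slc26a1, a sulfate transporter, Lyve1, a hyaluronan receptor of sinusoidal endothelium, and Ccl2 (0.94, 0.94 and 0.93, and 0.26, 0.57 and 0.09 within groups).

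The remaining members had weaker neighbours over the 18 libraries. Within groups, however, r was higher for the neighbours of Map3k8 and Irf1 than for those of Tnfaip2, Vcam1 and Csf1. Genes close to Sod2 were Clpx, a mitochondrial chaperone, and Mmp19, a matrix protease (0.87 and 0.87). Map3k8 was followed by Abcg2, H2-Q7 and Tlr4 (0.87, 0.87 and 0.85, and 0.70, 0.80 and 0.81 after the group means were removed). Of these, H2-Q7 has close paralogs that leave its reads uncertain. Irf1 was followed by Nfkb2, an NF-kappaB subunit, Arsa and Hspa8 (0.83, 0.81 and 0.80, and 0.59, 0.70 and 0.69 within groups). Genes close to Icam1 were Zcchc17 and Rgs19 (0.80 and 0.78, and 0.52 and 0.75 within groups). Cd40 was followed by Ormdl3, Slc24a3 and Prkcz (0.74, 0.74 and 0.74, and 0.59, 0.57 and 0.51 within groups). Among the 8 themselves, r was 0.83 for Vcam1 and Tnfaip2, 0.81 for Tnfaip2 and Csf1 and 0.76 for Vcam1 and Csf1. Within groups these fell to 0.30, 0.23 and 0.29. Sod2 and Vcam1 had r = 0.06, and Cd40 had a negative r with each of the 7 other members, from -0.63 with Csf1 to -0.13 with Sod2.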

How the data were processed

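The 8 genes and the lists set beside them were chosen with earlier results of these data known. Total RNA of 18 libraries was depleted of ribosomal RNA before sequencing, per the labels' protocols. The authors deposited 1 signal per gene and library, a read count divided by a library size factor, DESeq2-normalized by its name. STAR 2.7.8a, Partek and DESeq2 with mm39 stand in the submitters' processing notes. The sources used here give no counting or strand settings. Its Length column, another measure the authors deposited, is the gene span with introns, and its end lies 1 base past the gene. Of values up to 20 reads, 80.2% to 84.0% per library were within 0.05 reads of whole multiples of the value of 1 read (0.69 to 1.25), so reads were estimated and not recovered.

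Values were tested as log2(value + 1), for genes with at least 10 in at least 3 libraries, by limma-trend (limma 3.58.1, R 4.3.3) with 6 group means, 12 residual and 17 prior degrees of freedom, two-sided, with Benjamini-Hochberg adjustment over 14455 genes. The method was tested on simulated data. There were 13 comparisons. P-values measure the spread between libraries, which may be technical. Genes named beside the 8 were up to 3 called list members of smallest p and the 3 of closest pattern, of which some are not reported here. Transcript lengths came from GENCODE M21 (basic set) and promoters, from 250 bases before to 50 after a start, from RefSeq, both on GRCm38. Python 3.11.15, NumPy 2.4.6, pandas 2.3.3 and matplotlib 3.10.9 were used. Alternatives were a pseudocount of 0.5 or 5, no filter or a mean of at least 50, quantile, equal-total or recomputed median-of-ratios scaling, the replicate number as a block, only the groups compared, and each library left out.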

Additional observations from a re-analysis of the deposited data

Results flagged for a closer look

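The knockout effect on Sod2 differed between TNFa and TGFb, by -0.53 on the log2 scale in a test of the difference itself (limma adjusted p = 0.044). It was not called in 11 of 12 omissions of a library (adjusted p up to 0.14). The other 7 genes did not pass in this test. For CM against TGFb the Sod2 difference had the same size, -0.53, and did not pass (adjusted p = 0.069). The groups of 3 libraries are too small for a test of single libraries that stand apart.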

How the results depend on the processing

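Of 1755 values of a member under an alternative, 1683 kept their side of the threshold, 47 lost their call, 25 gained one and 0 called values changed sign, while 76 values that were not called with either setting changed sign. The number of members called stayed within 1.5 times in 196 of 221 cases. For Sod2 in the knockout effect of TNFa minus TGFb it went from 1 to 0 with no filter, equal totals and the replicate block. It went from 0 to 1 for CM minus TGFb with quantile normalization (Sod2, -0.55, adjusted p = 0.034), from 2 to 4 for CM minus TGFb in KO with equal totals, and, with only the groups compared, from 5 to 3 for CM minus TGFb in WT and from 3 to 1 for CM minus TNFa in WT. Over omissions of 1 library the number ran from 1 to 2 for KO minus WT with TNFa, 3 to 5 for the average, 3 to 5 for CM minus TGFb in WT, 2 to 4 for CM minus TNFa in WT, 0 to 1 for the knockout effect of TNFa minus TGFb and 0 to 1 for that of CM minus TGFb. The cause was not tested. Same-numbered libraries of different groups did not deviate together (correlations of -0.07 to 0.05 over 45 pairs, none over 0.1, and 15 with the best match in their own number), and the replicate block changed no other count by over 1.5 times. Cd40 rested on the fewest estimated reads (15.8 to 53.0 per library).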
